A study of Mus musculus with 8 samples.

Results

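The ADAM, ADAMTS and ADAMTS-like genes were taken as every probe of the authors' value table whose gene name in the array files opens with Adam, Adamts or Adamtsl followed by a digit. The rule found 98 probes for 51 genes, of 41174 probes for 27591 named genes or file names on the array. They were 28 ADAM genes on 50 probes, 18 ADAMTS genes on 39 probes and 5 ADAMTS-like genes on 9 probes. RNA of 4 colon adenomas and 4 normal colons of C57BL/6 mice had been hybridised to 8 one-colour (Cy3) Agilent arrays, 1 array a sample. The tumors are labelled Tcf4Het ApcHet, with 1 mutant copy of each of both genes, and the normals TCF4WT ApcHet, with intact Tcf4 and 1 mutant Apc copy. The Apc mutation, named ApcMin in the growth protocol, was thus shared by all 8 samples, and tumor tissue and Tcf4 loss cannot be told apart in any value below. The protocol gives the source as the distal 2.5 cm of the colon of littermates, with 4 mice of each genotype. The sample titles call all 8 samples adult. Exact age, sex and how the Tcf4 allele was made are not given in the labels.

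ADAMs are membrane-anchored metalloproteases that cut other membrane proteins close to the cell surface and release their outer parts, a step called shedding. Growth factors of the EGF family, TNF, Notch receptors and adhesion molecules are among the proteins that ADAM10 and ADAM17 release. ADAMTS proteases are secreted, carry thrombospondin repeats and cut the extracellular matrix, including the proteoglycans aggrecan and versican and the N-terminal propeptides of procollagens. ADAMTS-like proteins share the repeats and lack the protease domain, and a large group of ADAMs is known mainly from the testis and from sperm. All values below are log2 values of the table, in which 1 unit is a 2-fold difference, and levels of different probes are not compared.

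The arrays differed in ways that touch the family. Across 21581 genes tested, normal 3 correlated with the 4 tumors at 0.947 to 0.966 (Pearson) and with the other 3 normals at 0.872 to 0.941. Its absorptive colonocyte markers nevertheless lay with the normals: the list mean was 16.10 to 16.43 in the 4 normals, normal 3 included, and 13.57 to 14.98 in the tumors. The mean level of 646 olfactory receptor (Olfr) probes, whose genes have their known role in the nose, was 7.91, 7.46, 8.06 and 7.57 in tumors 1 to 4. In normals 1 to 4 it was 7.07, 5.65, 8.18 and 5.81, so normals 2 and 4 stood lowest and normal 3 highest. Tcf7l2, which encodes Tcf4, was lower in the tumors, with a log2 difference of -1.755 ± 0.24 (SE) and groups that did not overlap (limma, adjusted p = 0.0147), and Apc differed by -0.36 ± 0.17 (adjusted p = 0.176). Distal colon markers were present in all 8 samples, with list means of 12.45 to 13.07, and of the 9 tested 5 were called lower in the tumors (2 with the replicate block) and 1 higher, Hoxa11. Only 4 of the 8 columns could be traced to an array file, and 3 of those 4 matched a file deposited under another sample: the columns of normals 1 and 2 matched files of other normals, and the column of tumor 2 matched the file of normal 4, across the groups. Every group below therefore follows the label of the table's column. Fitted by the labels of the array files in place of those columns, 0 of 21671 genes passed and 432 had an unadjusted p under 0.05, and 0 of 44 family genes had one. In that fit Adam8 differed by 0.67 ± 1.06, Adamts7 by 0.48 ± 0.77, Adamts9 by -0.22 ± 0.74 and Adamts15 by -0.65 ± 0.47, and 8 of 43 family genes had the opposite sign.

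Of the 51 genes, 43 passed the filter on dim values and were tested. A probe was kept when it reached the detection limit of 5.59 on at least 4 of the 8 arrays. Among them 3 genes were called higher in the tumors at an adjusted p under 0.05 (Adam8, Adamts7 and Adamts9), and 1 was called lower, Adamts15 (limma, Benjamini-Hochberg over all genes). That is 9.3% of the tested members, against 14.6% of all genes tested, a lower share than on the array as a whole. By direction, 6.98% of the members were higher against 7.03% of all genes, and 2.33% were lower against 7.59%. The median difference, tumor minus normal, was 0.69 over the 43 genes and 0.15 over all genes, and 32 members had a mean difference above 0 and 11 below. The 2 groups did not overlap in 5 members, against 23.8% of all genes; these were the called 4 and Adamts4. In this whole tissue, fewer cells of a type and less RNA per cell cannot be told apart.

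**Figure D1:**
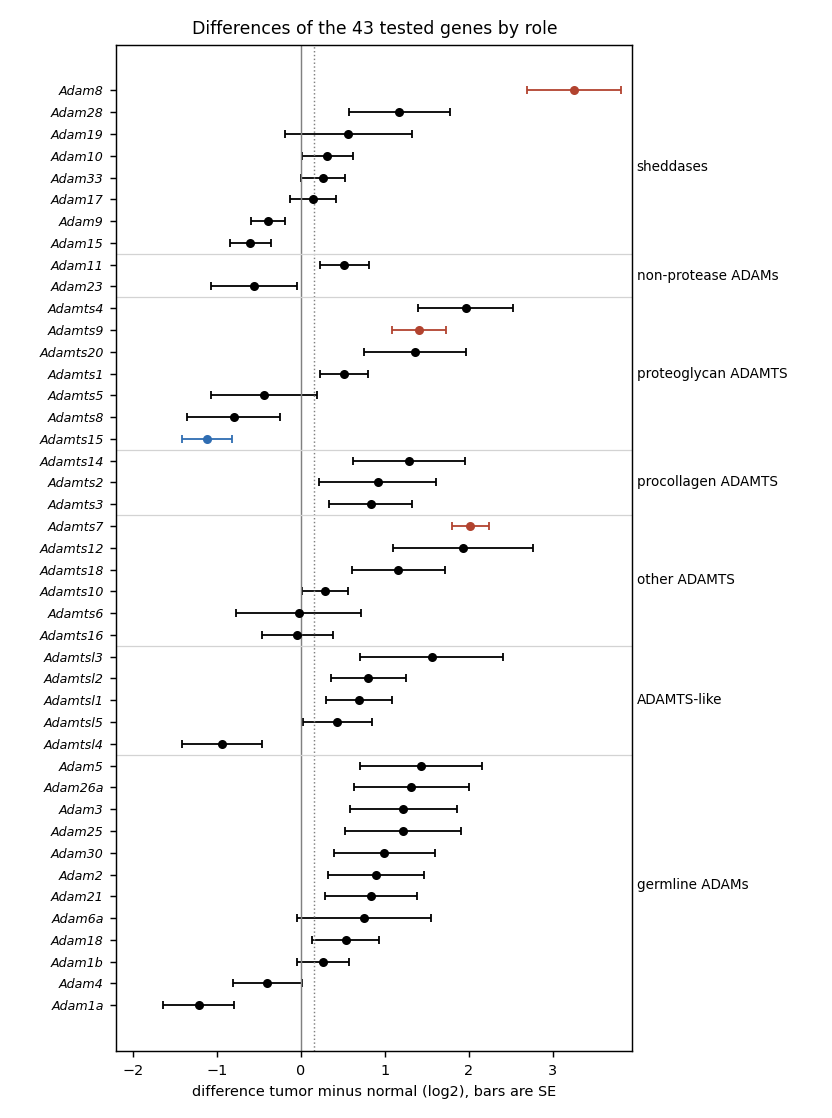
Difference tumor minus normal on the log2 scale (x axis) for the 43 tested genes (rows), grouped by role, with points for the limma estimate and bars for its SE; red marks genes called higher, blue called lower, black not called, and the dotted line is the median of all genes tested, 0.15. Adam8 has the highest value, 3.25, and the 12 germline ADAMs run from -1.22 to 1.43 with no gene called.

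The sheddase ADAM8 is a protease of myeloid cells, among others, that is made active by cutting itself. Its probe, A_51_P319917 (mm8, chr7:139830349-139830408, minus strand), read 14.63, 15.04, 14.48 and 14.27 in tumors 1 to 4. In normals 1 to 4 it read 10.20, 11.53, 12.97 and 10.71. Every tumor lay above every normal, with normal 3 the nearest. The difference was 3.25 ± 0.56 (SE), a 9.53-fold difference, with a 95% interval of 1.94 to 4.56 and an adjusted p of 0.0186 (limma). It was 3.79 without normal 3 and 2.71 ± 0.63 with the Olfr level of each array as a covariate (adjusted p = 0.0359). The call was lost, with adjusted p-values of 0.0595, 0.0646, 0.0504 and 0.0583, when tumor 2, tumor 3, normal 2 or normal 4 was left out. Within the slide that held tumor 1 and normal 1 the difference was 4.43, and within that of tumor 2 and normal 2 it was 3.51; the slides of the other columns are not known here.

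Adam8 rose together with neutrophil markers, of which 9 of 9 tested were called higher (8 with the replicate block), by 3.03 to 5.70. Their mean level was 11.31 to 12.84 in the tumors and 6.59 to 10.08 in the normals, with normal 3 the highest of these and 6.59 to 8.32 in the other normals. Macrophage markers had 6 of 10 called higher (5 with the replicate block), with list means of 12.58 to 12.77 in the tumors and 11.14 to 12.05 in the normals. The part of these cells in the difference of Adam8 was not tested. The 250 bases before the start of Adam8 (RefSeq, GRCm38.p6, chr7:139992563-139992812, minus strand) are shown because it had the highest difference in the family.
Adam8: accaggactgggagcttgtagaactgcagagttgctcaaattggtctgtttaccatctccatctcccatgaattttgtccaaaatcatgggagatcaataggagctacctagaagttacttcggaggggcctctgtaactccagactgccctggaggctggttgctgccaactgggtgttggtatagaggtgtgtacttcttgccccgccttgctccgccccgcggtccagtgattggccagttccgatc
Capitals were reserved for motif matches on either strand to CTTTGAA or the same with AT, TA or TT as its last letters (TCF/LEF), TGACTCA or TGAGTCA (AP-1) and GAGGAAG (PU.1), and this window holds none.

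The other sheddases were not called. ADAM10, which makes the first cut of activated Notch and sheds E-cadherin, read 9.48, 9.15, 8.30 and 8.92 in the tumors. In the normals Adam10 read 8.71, 8.996, 8.05 and 8.84, and the ranges overlapped, though tumors 1 and 2 lay above every normal (difference 0.31 ± 0.30, 95% interval -0.40 to 1.02). ADAM17, which releases TNF and EGF receptor ligands, read 10.95 to 11.69 in the tumors and 10.87 to 11.79 in the normals (Adam17, 0.14 ± 0.27, 95% interval -0.49 to 0.78). The Adam10 interval includes a 2-fold rise, and that of Adam17 does not. Adam9 differed by -0.39 ± 0.21 and Adam15 by -0.61 ± 0.25, both with normals 2 and 4 as the 2 highest arrays and with tumor and normal ranges that overlapped. Adam28 differed by 1.17 ± 0.61, with normals 2 and 4 the lowest arrays, and by 0.01 ± 0.16 with the Olfr covariate. Adam33 differed by 0.26 ± 0.27 on its brightest probe. Adam19, which acts in heart development and sheds neuregulins, differed by 0.57 ± 0.75, with normal 3 at 6.47 and the other 3 normals between 8.88 and 10.05. On its 2 dimmer probes normal 3 was instead the highest normal, at 9.06 and 9.12, and the mean of the 3 probes differed by 0.54 ± 0.14 and was called (limma, adjusted p = 0.0474). The Adam19 difference with the Olfr covariate was 1.96 ± 0.33 and passed the threshold (adjusted p = 0.0191). Of the ADAMs without protease activity, which act in contacts between neurons, Adam11 differed by 0.52 ± 0.29 and Adam23 by -0.56 ± 0.51.

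**Figure D2:**
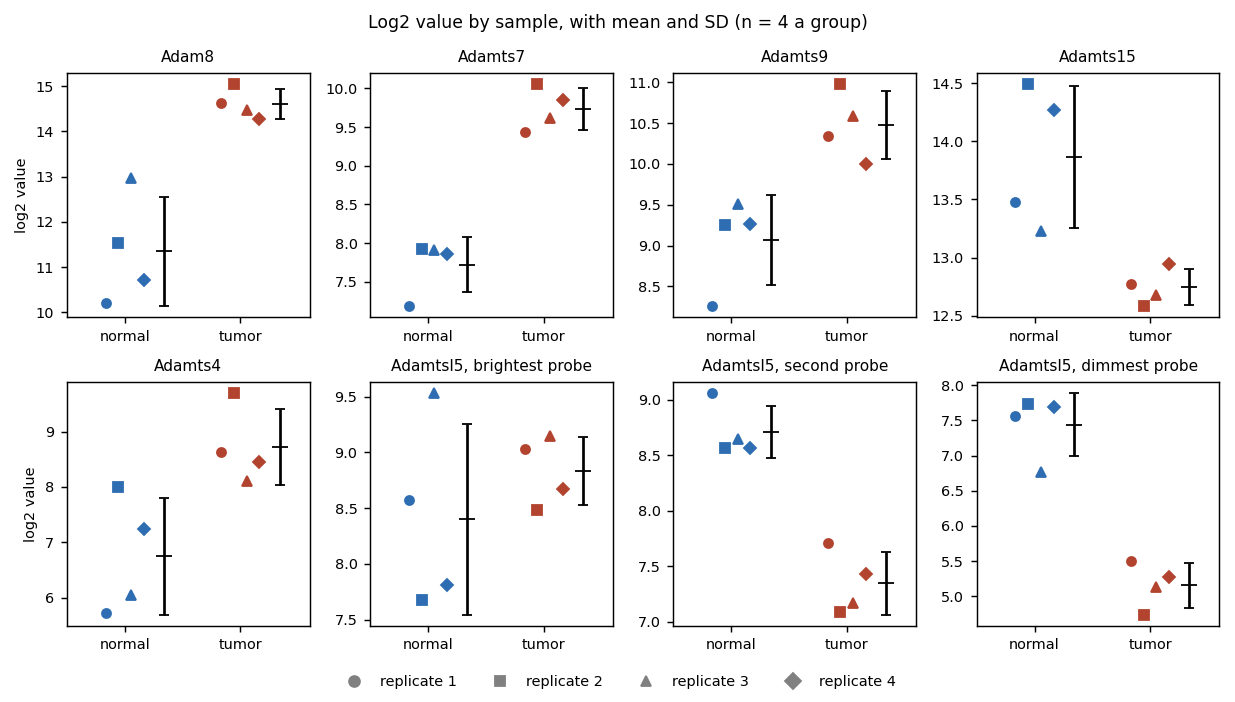
Log2 value (y axis, a scale of its own in each panel) in each normal (blue) and tumor (red) sample, with symbols for replicates 1 to 4 and black bars for the mean and SD of 4 samples. In the panels of Adam8, Adamts7, Adamts9 and Adamts4 every tumor lies above every normal, in that of Adamts15 and in 2 of the 3 Adamtsl5 panels every tumor lies below, and on the brightest Adamtsl5 probe the groups overlap.

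Adamts7 kept its call in the most fits. ADAMTS7 cuts cartilage oligomeric matrix protein (COMP) and thrombospondin 1 and is known from smooth muscle of injured vessels. Its probe A_52_P344036 (mm8, chr9:89997931-89997990, plus strand) read 9.43, 10.05, 9.62 and 9.84 in tumors 1 to 4 and 7.19, 7.92, 7.91 and 7.86 in normals 1 to 4. The groups were apart by more than a unit, and normal 3 stood with the other normals here. The value of normal 1, 7.19, lay below 7.71, the 95th percentile of that column's probes not well above background. This probe was well above background in 1 of the 2 traced normals. The difference was 2.02 ± 0.22 (SE), 4.05-fold, with an adjusted p of 0.0123 (limma). The second probe of the gene gave 9.17, 9.67, 9.13 and 9.51 against 7.27, 7.57, 7.83 and 7.53, a difference of 1.81 ± 0.19 in the test of every probe. With the Olfr covariate the difference was 2.12 ± 0.26 on A_52_P344036 (limma, adjusted p = 0.0104) and 1.79 ± 0.22 on the second probe. Of the 8 fits that left out 1 sample, 7 kept the call, and without tumor 3 the adjusted p was 0.0551. Its relative Adamts12, the other COMP-cleaving protease, differed by 1.93 ± 0.84 and was not called: 2 of its 4 normal values, those of normals 2 and 4, were below the detection limit, and normal 3 at 8.65 was level with the highest tumor. The Adamts12 difference was 0.31 ± 0.21 once the Olfr level entered the model.

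The remaining genes of that group were not called. Adamts18 differed by 1.16 ± 0.55 and by 0.10 ± 0.12 with the Olfr covariate. Adamts10, which acts on fibrillin microfibrils, differed by 0.29 ± 0.28 and Adamts16 by -0.04 ± 0.42. Adamts6 read 4.92 to 5.85 in the tumors and 3.24 to 6.87 in the normals, a difference of -0.03 ± 0.75, with only 2 tumors and 2 normals at the detection limit or above. It turned to 1.40 ± 0.23 with the Olfr covariate (adjusted p = 0.0185). Each of these 4 genes overlapped between the groups.

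The proteoglycan-cleaving ADAMTS moved in both directions. Adamts9, an orthologue of the worm gene gon-1 whose protease cuts versican and aggrecan, read 10.35, 10.98, 10.59 and 10.00 in the tumors on its brightest probe (A_52_P49321, mm8, chr6:92738561-92738620, minus strand). In the normals that probe read 8.26, 9.25, 9.504 and 9.26. Every tumor lay above every normal, and normal 1 was the lowest sample. The difference was 1.41 ± 0.32 (SE), 2.65-fold (limma, adjusted p = 0.0308). The other kept Adamts9 probes gave 0.42 ± 0.26 and 0.39 ± 1.04, were not called and overlapped between the groups, so the call rests on 1 of 3 probes. The mean of the 3 probes differed by 0.74 ± 0.45 and was not called (adjusted p = 0.248). With the Olfr covariate the difference was 1.42 ± 0.40 and missed the threshold (adjusted p = 0.0585). The call held when tumor 4 or normal 3 was left out and was lost, with adjusted p-values of 0.0589 to 0.0925, without tumor 1, 2 or 3 or normal 1, 2 or 4. The 250 bases before the start of Adamts9 (RefSeq, GRCm38.p6, chr6:92943535-92943784, minus strand) are shown as the second promoter of a called gene with an entry.
Adamts9: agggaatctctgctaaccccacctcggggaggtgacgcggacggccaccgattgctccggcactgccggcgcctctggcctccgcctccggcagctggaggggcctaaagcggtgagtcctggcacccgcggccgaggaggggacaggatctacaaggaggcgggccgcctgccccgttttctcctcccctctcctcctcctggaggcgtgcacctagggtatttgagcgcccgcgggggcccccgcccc
It holds no match to the same motifs and is 71.2% G and C, against 52.8% in the window of Adam8.

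Adamts15, another versicanase, was the only member called lower. Its probe A_51_P311038 (mm8, chr9:30649013-30649072, minus strand) read 12.78, 12.59, 12.67 and 12.95 in tumors 1 to 4. In normals 1 to 4 it read 13.48, 14.49, 13.23 and 14.27. Every tumor lay below every normal, by 0.28 at the nearest pair, with normals 2 and 4 the highest. The difference was -1.12 ± 0.30 (SE), 2.17-fold lower in the tumors (limma, adjusted p = 0.0451). The call was lost with the replicate block (adjusted p = 0.0662), with no filter on dim probes (adjusted p = 0.0597) and with the Olfr covariate (-0.61 ± 0.17, adjusted p = 0.0553). Among the fits that left out 1 sample only the one without normal 3 kept it; without each of the other 7 samples the adjusted p was 0.0733 to 0.121. Smooth muscle markers were also highest in normals 2 and 4, in 10 of 10, against 4512 of 21581 genes tested. Their list means were 12.86 to 15.12 in the normals, lowest in normal 3, and 13.29 to 14.29 in the tumors. Epithelium markers were highest in normals 2 and 4 in 8 of 10. Their list means were 17.26, 17.55, 17.22 and 17.56 in normals 1 to 4 and 16.93 to 17.10 in the tumors. The part of either cell type in the difference was not tested.

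Adamts4, aggrecanase 1, was not called by the rule but came near it. It read 8.63, 9.69, 8.11 and 8.45 in the tumors and 5.72, 8.002, 6.06 and 7.24 in the normals. The groups did not overlap, though tumor 3 and normal 2 were only 0.11 apart. The difference was 1.96 ± 0.56 (SE), with an adjusted p of 0.0563 without and 0.0414 with the replicate block, and of 0.0414 with the stricter filter on dim probes, of 0.0447 with an intensity trend in the variance model and of 0.0176 with the Olfr covariate, where it was 2.82 ± 0.46. Pairs 1 to 4 differed by 2.91, 1.69, 2.05 and 1.21, and any pairing would be upward, since the groups did not overlap. The value of normal 1, 5.72, lay below 7.71, the 95th percentile of that column's probes not well above background. The Adamts4 probe was well above background in 1 of the 2 traced normals, so the size of pair 1 is uncertain. The remaining 4 were not called and overlapped: Adamts1 by 0.51 ± 0.28 (0.93 ± 0.22 and called with the Olfr covariate, adjusted p = 0.0396), Adamts5 by -0.44 ± 0.63, Adamts8 by -0.80 ± 0.56 and Adamts20 by 1.36 ± 0.61. Adamts5 and Adamts8 were highest in normals 2 and 4, and Adamts20 was lowest there.

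The 3 procollagen N-proteinases, which trim the ends of fibrillar collagens, were all higher by the mean and none was called on its brightest probe. Adamts2 read 11.65 to 13.15 in the tumors and 9.39 to 12.73 in the normals, with normal 3 the lowest (0.91 ± 0.70). Adamts3 differed by 0.83 ± 0.50 on its brightest probe, by 1.07 ± 0.21 and called as the mean of its 2 kept probes (limma, adjusted p = 0.0237), and Adamts14 by 1.29 ± 0.67. With the Olfr covariate these values were 2.12 ± 0.44 (adjusted p = 0.0294), 1.51 ± 0.45 (adjusted p = 0.0661) and -0.02 ± 0.12, so Adamts14 left the other two. The fibroblast list mean was also lowest in normal 3, at 11.43. So were the list means of smooth muscle (12.86), endothelium (9.31), macrophage (11.14) and B cell (7.70) markers. Of the fibroblast markers 2 of 10 were called higher, or 7 of 10 with the covariate, against 7.03% and 7.48% of all genes. The part of these cells in the difference of Adamts2 was not tested.

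Among the ADAMTS-like genes, probes of Adamtsl5 disagreed. ADAMTSL5 is a secreted protein that binds fibrillin microfibrils. The probe that stands for the gene, A_51_P101588 (mm8, chr10:79745955-79746014), read 8.48 to 9.15 in the tumors and 7.68 to 9.53 in the normals (0.43 ± 0.41, adjusted p = 0.432). A second probe, A_52_P407280 (chr10:79744461-79744520), read 7.71, 7.09, 7.17 and 7.43 in the tumors against 9.06, 8.57, 8.65 and 8.57 in the normals. Its difference was -1.36 ± 0.20, and it passed in the test of every kept probe (limma, adjusted p = 0.0151, or 0.0314 with the replicate block). The third, A_52_P150620 (chr10:79743504-79743563), read 5.50, 4.74, 5.13 and 5.27 in the tumors, all below the detection limit, against 7.56, 7.73, 6.77 and 7.69 in the normals. It was at least 3.6-fold lower in the tumors, but it passed the filter only through the normals, where it was high, and its p-value supports nothing here. On A_52_P407280 no tumor reached a normal and normal 3 sided with the normals, while on the brightest probe normals 2 and 4 were the 2 lowest and normal 3 the highest array. In that test of every probe, 7 of 72 family probes were called, or 9.72%, against 13.5% of all 31767 kept probes: those of Adam8 and Adamts15, 1 of Adamts9, both of Adamts7 and these 2 of Adamtsl5. Leaving out the Adamtsl5 probe that passed only through the normals, 6 remain. The 250 bases before the start of Adamtsl5 (RefSeq, GRCm38.p6, chr10:80348449-80348698, minus strand) are shown as those of the gene whose probes disagreed.
Adamtsl5: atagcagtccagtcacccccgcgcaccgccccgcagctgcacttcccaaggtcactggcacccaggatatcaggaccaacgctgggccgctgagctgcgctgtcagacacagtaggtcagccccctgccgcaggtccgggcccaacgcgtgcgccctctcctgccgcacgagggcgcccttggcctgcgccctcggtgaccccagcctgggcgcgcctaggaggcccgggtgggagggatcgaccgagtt
This window too holds no match. TCF/LEF, AP-1 and PU.1 letters occurred in 14.8%, 4.46% and 10.6% of 32851 windows of that length. Of the 26 family genes with an entry, 3, 2 and 2 held one.

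The other ADAMTS-like genes followed the order of the arrays. Adamtsl3 differed by 1.56 ± 0.86, Adamtsl2 by 0.80 ± 0.44 and Adamtsl1 by 0.69 ± 0.40, each with normals 2 and 4 the lowest arrays, and Adamtsl4 by -0.94 ± 0.48 with those arrays the highest. None was called, and with the Olfr covariate all 4 lay between -0.10 and 0.00. Second probes of Adamtsl1 and Adamtsl3 gave -0.74 ± 0.48 and -1.02 ± 0.59. Kept probes differed in sign in 5 of the 21 genes with more than 1, namely Adam33, Adamts16, Adamtsl1, Adamtsl3 and Adamtsl5.

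Germline ADAMs, among them the sperm fertilins and their partners, had 12 of 16 genes pass the filter and 0 called (limma; Adam1a alone passed with the replicate block, which called 5 family genes and 8.93% of all genes). Their differences ran from -1.22 to 1.43 with a median of 0.87, and 10 of 12 were above 0. In 8 of the 12, normals 2 and 4 were the 2 lowest arrays, and in 5 the probe was well above background in 0 of the 2 traced normals. Over 619 Olfr genes the median difference was 1.11, with normals 2 and 4 the 2 lowest arrays in 526 of them. The germline median was -0.03 with that level as a covariate. Adam1a, a fertilin subunit, read 6.90, 7.57, 6.46 and 7.79 in the tumors and 8.30, 8.77, 7.47 and 9.07 in the normals. It overlapped, through normal 3 and tumors 2 and 4, and had a difference of -1.22 ± 0.42 with an adjusted p of 0.0932, or 0.0357 with the replicate block, since each pair differed by -1.005 to -1.40.

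**Figure D3:**
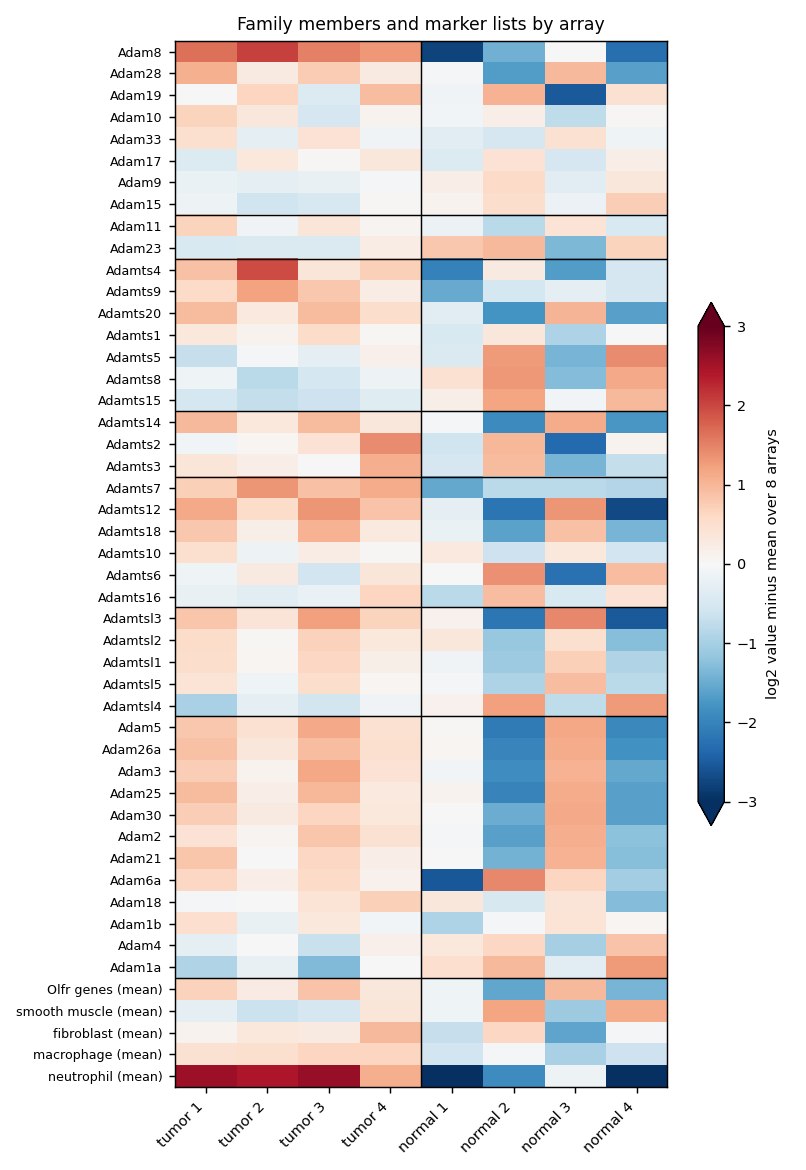
Log2 value minus the mean over 8 arrays (colour, red above and blue below, clipped at 3 units) for the 43 tested genes by role (rows, lines between roles) and, in the 5 bottom rows, for the means of Olfr genes and of 4 marker lists, in 4 tumors and 4 normals (columns). Many germline ADAM rows share the blue cells of normals 2 and 4 with the Olfr row, and Adamts5, Adamts8 and Adamtsl4 are red there like smooth muscle.

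The share of family probes with that order of arrays was near that of the whole array. Normals 2 and 4 were the 2 lowest arrays for 25 of 72 family probes (34.7%), for 549 of 646 Olfr probes and for 29.4% of all kept probes. They were the 2 highest for 19 of 72 (26.4%), against 0.464% of the Olfr probes and 25.0% of all. By gene, they were the 2 lowest in 19 of 43 members against 7217 of 21581 genes tested, a higher share in the family. They were the 2 highest in 9 of 43 members against 4512 of 21581 genes. Of the 11 uncalled genes at least 2-fold higher in the tumors, 10 had normals 2 and 4 as the lowest arrays. Of the 4 called genes 0 did, 1 of them, Adamts15, being a lower call. That order held in 7217 of 21581 genes tested. Wide spread among the normals hinders a call, so this contrast is partly fixed by how the sets were picked. With the Olfr covariate the family median was 0.03 against 0.69 without it. In that fit 7 members (16.3%) were called higher, against 7.48% of all genes, and 0 lower, against 6.41%. Over both directions 13.9% of all genes were called. The 7 were Adam8, Adam19, Adamts1, Adamts2, Adamts4, Adamts6 (with 4 of its 8 values below the limit) and Adamts7, of which Adam8 and Adamts7 were also called without it.

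**Figure D4:**
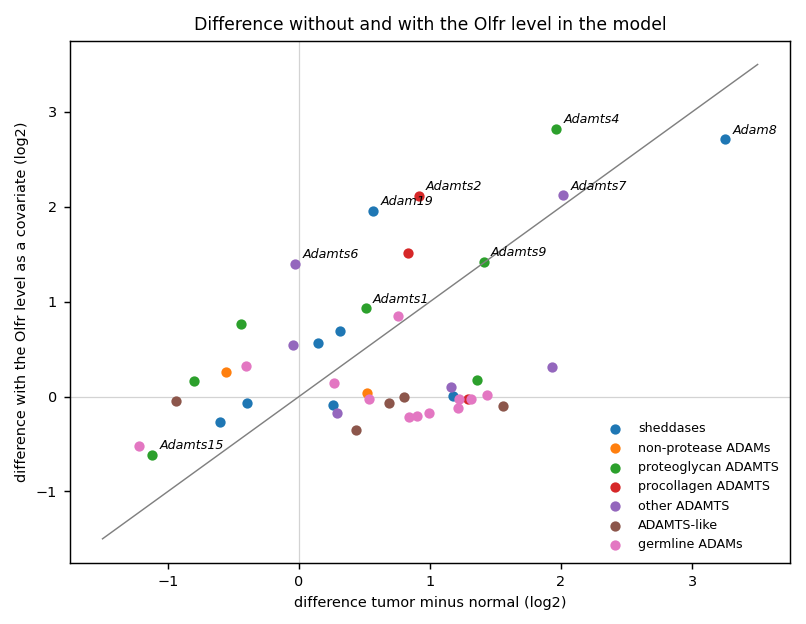
Difference tumor minus normal (log2) without (x axis) and with (y axis) the Olfr level of each array in the model, 1 point for each of the 43 tested genes, coloured by role, with the diagonal in grey. On the y axis germline ADAMs lie between -0.53 and 0.85 and ADAMTS-like genes between -0.35 and 0.00, while Adam8, Adamts2, Adamts4 and Adamts7 lie above 2.

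Normal 3 set how many members passed. Without it 28 of the 43 genes were called, 20 higher and 8 lower, against 51.6% of all genes (31.7% higher and 19.8% lower). The 28 included the called 4, and 16 of the 20 higher ones had normals 2 and 4 as the lowest arrays. That order held in 7217 of all 21581 genes tested, and its share among all genes called higher without normal 3 was not counted. Without tumor 3, in contrast, 0 family genes and 21 genes in all were called (0.0973%), with 5 family genes at an unadjusted p under 0.05.

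**Figure D5:**
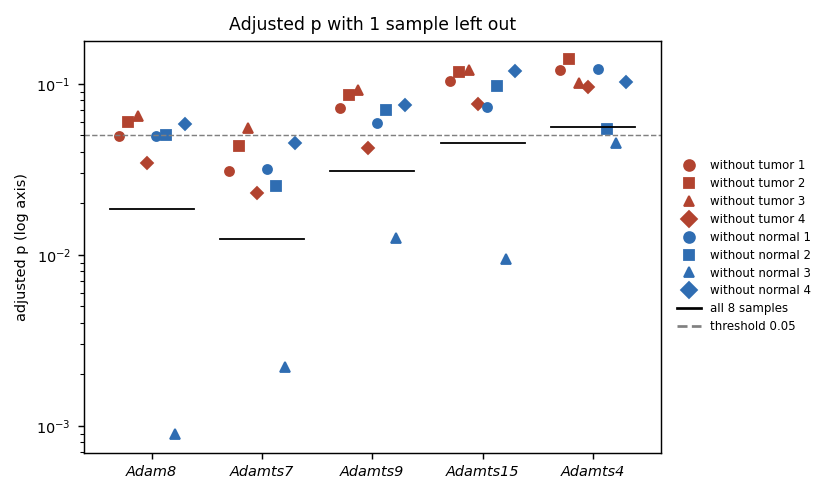
Adjusted p (y axis, log axis) of 5 genes when 1 of the 8 samples was left out (red for tumors, blue for normals, symbols for replicates 1 to 4), with the value over all 8 samples as a black bar and the threshold of 0.05 dashed. Adamts7 stays under the threshold in 7 of 8 fits, Adam8 in 4, Adamts9 in 2 and Adamts15 and Adamts4 in 1.

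Of 8 genes that did not pass the filter, Adam22 read at most 3.10 on any array, and Adam7, Adam24, Adam29 and Adam32 stayed below the detection limit throughout. Adam12, a sheddase of mesenchymal cells, reached the limit in tumors 2 and 4, at 6.30 and 6.05, and in no normal. Adamts13, which cuts von Willebrand factor, reached it in normal 2 alone, at 5.98. Adamts19 did so in normals 2 and 4 alone, at 7.70 and 7.30 on 1 probe and 7.21 and 6.80 on another. These genes had no test.

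Among the inhibitors, 1 of 7 tested genes was called higher and 1 lower. Timp1, an inhibitor that blocks most matrix metalloproteinases and ADAM10, read 12.43, 13.19, 12.94 and 13.17 in the tumors and 10.39, 9.77, 11.11 and 8.80 in the normals (2.92 ± 0.47). Timp4 was lower, with 9.39, 8.58, 9.35 and 9.06 against 10.57, 10.07, 10.47 and 10.17 (-1.23 ± 0.22). Neither overlapped between the groups. Counts over these pathway lists stand beside 7.03% of all genes called higher and 7.59% called lower.

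Of 18 genes for the maturation and transport of ADAMs, 5 were called higher and 4 lower, or 2 and 3 with the replicate block. Sh3pxd2b, a scaffold of invasive membrane protrusions, differed by 1.63 ± 0.18. The tetraspanins that carry ADAM10 to the cell surface divided: Tspan14 was higher by 0.80 ± 0.16 and Tspan5 by 1.39 ± 0.37 (not called with the replicate block, adjusted p = 0.0655), and Tspan33 and Tspan15 were lower, with differences of -1.52 ± 0.25 and -1.19 ± 0.20. Of 35 membrane substrates of ADAM10 or ADAM17, 9 were called higher and 5 lower, or 8 and 2 with the replicate block. Icam1, an adhesion molecule for leukocytes, differed by 2.09 ± 0.31, the TNF receptor gene Tnfrsf1b by 1.45 ± 0.21 and the EGF receptor ligand gene Btc by 1.003 ± 0.15, while Egf differed by -2.02 ± 0.33. Btc and Egf, which encode ligands of 1 receptor, thus moved in opposite directions. The list's other genes for ligands of that receptor, Tgfa, Areg, Ereg, Epgn and Hbegf, were not called.

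Matrix substrates of ADAMTS proteases had 2 of 28 called higher and 1 lower. Thbs1, a substrate of ADAMTS7, read 11.37, 11.41, 11.19 and 11.48 in the tumors against 9.81, 10.80, 10.097 and 9.85 (1.22 ± 0.23). Efemp2, an elastic fibre protein, differed by 1.52 ± 0.26, and Reln, a glycoprotein cut by procollagen N-proteinases, by -1.12 ± 0.22. With the Olfr covariate 12 of the 28 were called higher and 1 lower, against 7.48% and 6.41% of all genes in that fit. Of the list's genes 5, Col1a1, Col1a2, Col3a1, Lum and Dcn, are also fibroblast markers here. Among 7 genes for the glycosylation of thrombospondin repeats and their partners, Bmp1, the C-proteinase of procollagens, was the 1 called, at 1.51 ± 0.22. Other metzincins, the superfamily to which ADAMs belong, had 12 of 21 called higher and 1 lower, or 8 and 1 with the replicate block. Mmp9 differed by 3.43 ± 0.33, Mmp12 by 3.24 ± 0.46, Mmp11 by 1.34 ± 0.24 and Mmp14 by 1.20 ± 0.21; Mmp8, also called, is itself among the neutrophil markers. Without tumor 3 0 genes of these lists were called, in place of 30 higher and 12 lower, and without normal 4 there were 3 higher and 0 lower.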

How the data were processed

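The deposited value table holds log2 values with 1 column per sample. Its scale is not stated in the labels; in the 4 columns that match an array file (Spearman correlation 1.0) a linear fit on log2 intensity had a slope of 0.891 to 1.06, so it was read as log2. The 1st, 5th, 50th, 75th, 95th and 99th percentiles were equal in all 8 columns, as quantile normalisation by the authors would leave them, though no label names the method. Per the file headers, the array files hold background-subtracted intensity values from Agilent Feature Extraction 9.5.1.1 (design 014868, probe positions on mm8); version 10.1.1.1 is given in the submitters' processing notes. Of these files, 55.6% to 82.7% of the 41174 probes were well above background, and 4 arrays a group limit the precision. The family, the gene lists and the tests were chosen with earlier results of these data known.

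Probes were named through RefSeq accessions (24496), symbols (6234) or synonyms (2386), and 8058 kept the file's name. For the detection limit, the 95th percentile of values without a well-above-background flag was found in each traced column. The median of these 4 percentiles, 5.59, was taken. They ran from 4.50 in tumor 1 to 7.71 in normal 1. The brightest kept probe stood for a gene. Differences were tested with limma 3.58.1 (R 4.3.3; lmFit, eBayes, 2-sided) over all 21581 genes with Benjamini-Hochberg adjustment, and the method was tested on simulated data. Named were all called members, all uncalled members other than germline ADAMs, and up to 4 called genes a pathway list by lowest p. The labels do not say that samples with 1 replicate number are from 1 litter, but the deviations of same-numbered tumors and normals from their group means correlated at 0.239, 0.355, 0.534 and 0.362 over genes. Samples of different numbers correlated at -0.507 to 0.38, 3 of them as highly as some same-numbered ones (0.38, 0.351 and 0.28), so the pairing is a hint from the data and not from the design. By a rule that every same-numbered correlation exceed 0.1 the numbers were taken as pairs for the replicate block. The main fit and its p-values were unpaired. Pairs 1 and 2 each shared a slide, so pairing and slide cannot be told apart in them. The replicate block is given for family genes and pathway counts whose calls it changed. Each sample is taken as a separate mouse; p-values measure the spread between these samples.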

Additional observations from a re-analysis of the deposited data

Results flagged for a closer look

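In 86 groups of 4 samples, 1 for each tested family gene and tissue, 4 had a sample far from the other 3 of its group by Dixon's test; chance alone gives about 1 in 20 groups. Adamts7 read 7.19 in normal 1, against 7.86 to 7.92 in the other normals. Adam23 read 6.42 in normal 3, against 8.43 to 8.74 in the other normals. Among the tumors, Adam23 read 7.97 in tumor 4, against 7.30 to 7.33 in the others. Adamts16 read 6.98 in tumor 4, against 6.01 to 6.14 in the other tumors.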

How the results depend on the processing

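Array files fitted as filed gave 0 genes called, family included, in all 3 forms (log2 signal, the same with the slide as a block, and normexp with quantile normalisation), and Adamts9 turned to -0.22; the cause was not tested. With the replicate block, which uses the pairing, 1927 genes were called in place of 3157; Adamts15 lost its call and Adamts4 and Adam1a gained one, and no other family call changed. Over the pathway lists it gave 22 higher and 8 lower genes in place of 30 and 12. Leaving out 1 sample gave 21 to 11129 genes, 0 to 20 family genes higher, 0 to 8 lower, and 0 to 44 higher and 0 to 21 lower over the pathway lists. The Olfr covariate, added after seeing the data, gave 7 higher, 0 lower and a median of 0.032, and Adamts6 turned to 1.40. Lower family calls were 0 with no filter on dim probes, 2 with the mean of a gene's probes and 3 with every probe tested. With that mean Adamtsl5 turned to -1.07 and was called, Adam19 and Adamts3 were called higher and Adamts9 was not called. The counts of 2 and 3 both draw on the Adamtsl5 probe that passed the filter only through the normals. That part of them supports nothing here. The stricter filter and the intensity trend each added Adamts4. Subtracting each array's median, which lowered the family median to 0.56, gave the same 4 family calls, but 1076 higher and 2024 lower genes in place of 1518 and 1639. At least 1 array lay below the limit for 5 of 12 germline ADAMs, 3 of 6 COMP-cleaving and other ADAMTS and 1 of 5 ADAMTS-like genes, and for no tested gene of the other roles.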
